A study of Homo sapiens with 4 samples.

Results

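The mRNAs of 46 centrosomal genes were followed in an RNA immunoprecipitation (RIP-seq) of FLAG-tagged ORC1, a subunit of the complex that marks origins of DNA replication. Members were the protein-coding genes whose GENCODE v44 symbol is CEP, a number and any capital letters after it, without CEP95. Also included were 10 named centrosomal genes: PCNT, PCM1, NIN, NINL, CNTROB, CNTRL, CDK5RAP2, AKAP9, ODF2 and SASS6. All 46 were among the 63677 genes of the count table and all 46 passed the filter on low counts, which left 14645 genes. The rule uses symbols only and no measured value, but it was proposed with results of these data known.

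HCT116 cells, a human colorectal carcinoma line, were transiently transfected with the plasmid pcDNA3.1-ORC1-3xFLAG and collected 48 h later. Nuclear lysates were sonicated and precipitated with anti-FLAG, with no crosslinking, and RNA was sequenced from the precipitate (ORC1-FLAG IP, 2 libraries) and from the lysate before precipitation (Input, 2 libraries). All 4 libraries came from transfected cells, so both groups carry the plasmid, and no untransfected cells or control antibody belong to the series. RNA held by beads or antibody was therefore not measured apart from RNA held by ORC1-FLAG in these libraries. The paper reports no detectable RNA with control IgG in its RIP of endogenous ORC1. In its iCLIP it reports negligible RNA from anti-FLAG precipitation of untransfected cells. Since the libraries are bulk nuclei, fewer cells with an mRNA and less of it per cell cannot be told apart.

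The centrosome organises microtubules in animal cells and consists of a pair of centrioles in a protein matrix, the pericentriolar material. CEP proteins are named for their place there and not for a shared ancestry, and many of them are long coiled-coil scaffolds. They build centrioles, anchor microtubules, tie the centrioles together, form the appendages of the older centriole and prepare it to carry a cilium.

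Library totals ranged from 9213877 counts in Input replicate 2 to 27483148 in IP replicate 1. ORC1 itself stood at 333 and 5063 CPM in Input replicates 1 and 2 and at 1108 and 18551 in the IP libraries, so the replicates differed in the amount of ORC1 mRNA. All 5 epithelial markers (EPCAM, KRT8, KRT18, CDH1, CLDN4) were present at 46.8 CPM or more in every library. Of 8 markers of blood, endothelium and fibroblasts, CD3E, DCN and PECAM1 were at 0 in all libraries, COL3A1 and PTPRC were below 0.5 CPM, and COL1A1 was the highest at 7.90 to 26.7 CPM. COL1A1 was itself enriched in the IP (log2 fold change 1.38), and the part of other cell types in the results was not tested. CPM here are counts relative to the library size after TMM scaling, which takes a trimmed mean of gene ratios as the base. With library size alone the median log2 fold change of all genes tested was -0.59, in place of 0.01, and with upper-quartile scaling it was -0.16, so each enrichment below is relative to the median gene.

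Setting IP against Input shows which of these mRNAs were recovered with ORC1-FLAG beyond their share of nuclear RNA. In edgeR, 23 of the 46 were called enriched (50.0%) and 1 was called depleted (2.17%), against 10.5% and 8.3% of all genes tested. A gene was called where its log2 fold change exceeded 1 in size and its p, adjusted by Benjamini-Hochberg, was below 0.05. The median log2 fold change was 1.18, a fold of 2.27, whereas it was 0.08 over the 12542 protein-coding genes tested. Values ran from 2.88 for CEP162 (ENSG00000135315, chr6:84124241-84227643 on GRCh38, minus strand) to -1.69 for CEP20 (ENSG00000133393, chr16:15865719-15888625, minus strand). Next to CEP162 came CEP290 (ENSG00000198707, chr12:88049016-88142099, minus strand) and CEP152 (ENSG00000103995, chr15:48712928-48811146, minus strand). The log2 ratio of IP to Input exceeded 1 in both replicates for 21 members (45.7%), against 8.95% of all genes tested. It was above 0 in both for 37 (80.4%, against 42.9% of all genes) and below 0 in both for 3 (6.52%, against 41.7%). Taken singly, 21 members exceeded 1 in replicate 1 (45.7%, against 13.5%) and 30 in replicate 2 (65.2%, against 12.0%).

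With the replicate number as a block, 27 members were enriched and 1 was depleted, against 13.4% and 13.4% of all genes. CEP55, CEP135, CEP63 and CEP57 were the additions. Without the block these 4 had log2 fold changes of 1.06 to 1.34 but missed the adjusted p.

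**Figure D1:**
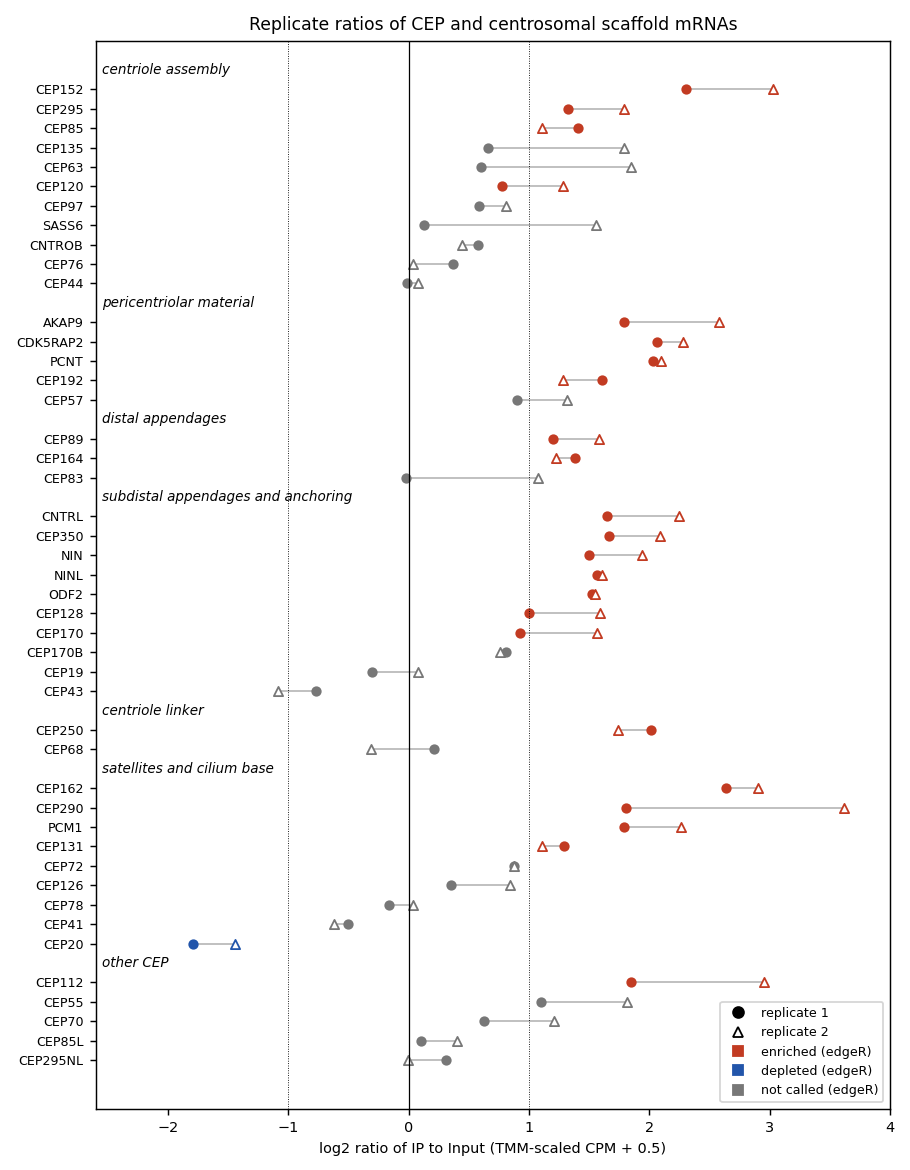
Log2 ratio of IP to Input (TMM-scaled CPM with 0.5 added) for the members named in the text, grouped by role. Circles are replicate 1 and triangles replicate 2, a grey line joins them, dotted lines mark -1 and 1, and colour gives the edgeR call. The 23 enriched members lie to the right of 0 in both replicates and CEP20 lies left of -1 in both.

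The pericentriolar material, from which most microtubules grow, held 4 enriched members of 5 and the highest median of the 7 role lists, 2.07. Of all genes tested 10.5% were enriched, and of other protein-coding genes with coding sequences of 3615 bases or more 46.0%. Median coding length differed between the role lists, from 7611 bases here to 1863 for members outside these roles. Role and length were not separated, here or in the role lists below. AKAP9, a scaffold for kinases at the centrosome and the Golgi, stood at 209 and 258 CPM in IP replicates 1 and 2 and at 59.9 and 42.9 in the Inputs (log2 fold change 2.18, SE 0.28, adjusted p = 0.011 in edgeR). CDK5RAP2, which recruits and activates γ-tubulin ring complexes, had 388 and 359 CPM in the IP and 92.3 and 73.3 in the Input (2.17, SE 0.26, adjusted p = 0.011). In both genes the IP libraries were far above the Inputs and the libraries of a group lay close together.

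PCNT encodes pericentrin, the large matrix scaffold, and had close replicate log2 ratios of 2.03 and 2.10. CEP192, which brings mitotic kinases to the matrix, had 220.3 and 200.4 CPM in the IP and 71.9 and 82.2 in the Input (1.45, SE 0.24, adjusted p = 0.012). CEP57, a partner of pericentrin, had 86.9 and 56.1 CPM in the IP and 46.3 and 22.3 in the Input (1.06, SE 0.39, adjusted p = 0.092). Its groups did not overlap, but both replicate 2 libraries lay below their replicate 1 partners, and with the replicate block the adjusted p was 3.8e-05. Its log2 fold change was 1.73 without Input replicate 1 (called), 0.48 without Input replicate 2 (adjusted p = 0.30) and 0.75 without IP replicate 1 (adjusted p = 0.27). Its exons share 20.9% of their length with MTMR2 on the opposite strand, and the strand setting of the counting is not stated.

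**Figure D2:**
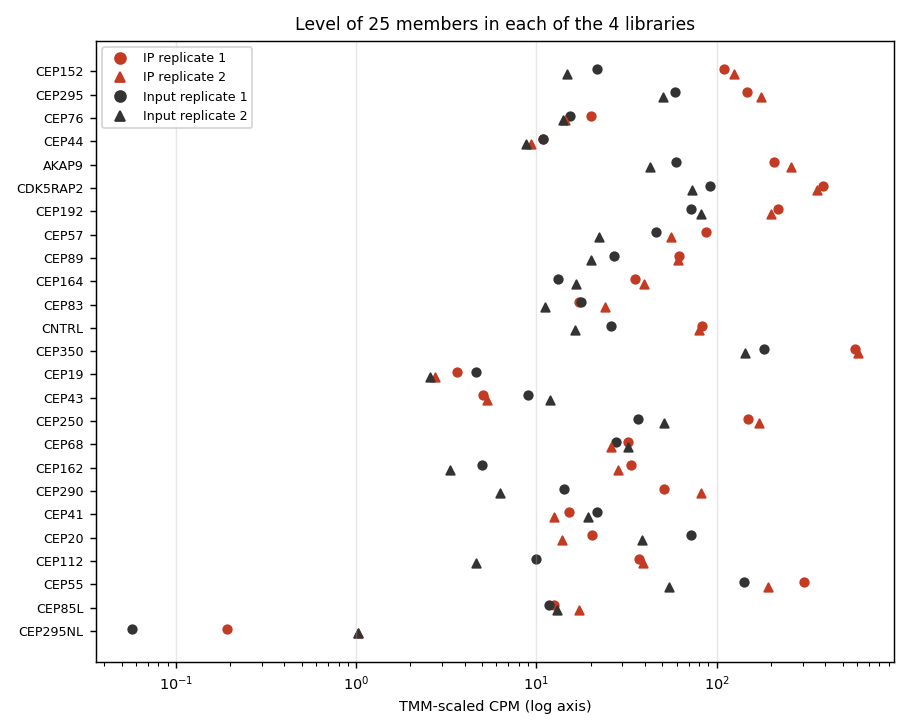
TMM-scaled CPM (log axis) of 25 members in each library, in the order of their roles. Red marks are IP and dark marks Input, circles replicate 1 and triangles replicate 2. CEP152, AKAP9, CDK5RAP2, CEP162 and CEP290 show IP marks well to the right of Input marks, CEP20 shows the reverse, and CEP44, CEP68 and CEP295NL show both kinds mixed.

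Among the 11 genes of centriole assembly, 4 were enriched (36.4%, against 10.5% of all genes tested), with a median of 1.02. CEP152, the scaffold that holds the kinase PLK4 where a new centriole forms, had 109.6 and 124 CPM in the IP and 21.8 and 14.8 in the Input (2.67, SE 0.28, adjusted p = 0.011 in edgeR), a 6.37-fold difference. CEP295, needed for a new centriole to become a centrosome, had 147 and 176 CPM against 58.4 and 50.4 (1.57, SE 0.24, adjusted p = 0.012). Both genes were well above Input in each replicate, by 2.30 and 3.03 on the log2 scale for CEP152 and by 1.32 and 1.79 for CEP295. CEP85, a partner of STIL, and CEP120, which acts in centriole elongation, were the other calls at 1.26 and 1.02. CEP120 was near the fold asked for a call and kept it in 5 of 12 alternative fits.

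The remaining assembly genes ranged from 0.03 to 1.15 and were not called. CEP63, the partner of CEP152 at the centriole wall, had a log2 ratio of 0.60 in replicate 1 and 1.85 in replicate 2. CEP135 and SASS6, proteins of the cartwheel that sets the symmetry of the centriole, had ratios of 0.66 and 1.79, and of 0.13 and 1.56. In each of these genes the replicates differed by more than 1. Without Input replicate 1 all were called, CEP63 at 2.09, CEP135 at 1.82 and SASS6 at 1.84, and without Input replicate 2 none was, at 0.35, 0.57 and -0.19. CEP97, which caps centrioles, and CNTROB, a duplication factor, had log2 fold changes of 0.68 and 0.52. CEP76, which limits reduplication of centrioles, had 20.03 and 14.5 CPM in the IP and 15.4 and 14.1 in the Input (0.23, SE 0.25, adjusted p = 0.55). CEP44, a protein of the centriole lumen, had 10.9 and 9.33 against 10.9 and 8.81 (0.03, SE 0.26, adjusted p = 0.95). The libraries of CEP76 and CEP44 overlapped between groups.

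Distal appendages dock the older centriole to a membrane. Of their 3 genes, 2 were enriched (66.7%, against 10.5% of all genes tested). CEP89 had 62.2 and 61.0 CPM in the IP and 26.8 and 20.03 in the Input (1.39, SE 0.24, adjusted p = 0.013 in edgeR). CEP164, which recruits the kinase that starts cilium formation, had 35.3 and 39.4 against 13.2 and 16.6 (1.33, SE 0.24, adjusted p = 0.014). CEP83, the innermost of these components, was the exception with 17.3 and 24.1 CPM against 17.6 and 11.1 (0.52, SE 0.31, adjusted p = 0.26). Its IP and Input were level in replicate 1 and apart only in replicate 2.

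Subdistal appendages and microtubule anchoring gave 7 enriched genes of 10 (70.0%, against 10.5% of all genes tested), with a median of 1.42. CNTRL (centriolin, a protein of the mother centriole) had 82.8 and 79.6 CPM in the IP and 26.1 and 16.3 in the Input (1.93, SE 0.28, adjusted p = 0.011 in edgeR). CEP350, a large protein that holds microtubules at the centrosome, had 583 and 610.0 against 183 and 143 (1.87, SE 0.27, adjusted p = 0.011). NIN (ninein), its relative NINL, ODF2, CEP128 and CEP170 were also enriched, at 1.24 to 1.68. CEP128 and CEP170 fell to 0.99 and 0.90 without Input replicate 2 and were then not called.

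The same list held members that were not recovered above Input. CEP43, also known as FOP, binds CEP350 and CEP19 at the mother centriole. It had 5.04 and 5.35 CPM in the IP and 8.93 and 11.9 in the Input (-0.999, SE 0.28, adjusted p = 0.045), just short of the fold asked for a call. CEP19 had 3.65 and 2.73 against 4.64 and 2.57 (-0.18, SE 0.44, adjusted p = 0.79), with overlapping libraries. The CEP350 mRNA and the mRNAs of these binding partners thus had log2 fold changes of 1.87, -0.999 and -0.18. CEP43 shares 12.2% of its exonic length with another gene on its own strand.

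The linker that ties the centrioles together gave 1 enriched gene of 2 (50.0%, against 10.5% of all genes tested). CEP250 (C-Nap1, the anchor of the linker at the centriole end) had 149 and 173 CPM in the IP and 36.6 and 51.2 in the Input (1.88, SE 0.27, adjusted p = 0.011 in edgeR). CEP68, a protein of the linker fibres, had 32.2 and 25.9 against 27.7 and 32.4 (-0.04, SE 0.23, adjusted p = 0.91). Its IP was above Input in replicate 1 and below it in replicate 2.

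Centriolar satellites and the base of the cilium held the widest range, with 4 enriched and 1 depleted of 10. CEP162, which helps assemble the transition zone of the cilium, had the highest fold change of all members, with 33.7 and 28.2 CPM in the IP and 4.98 and 3.34 in the Input (2.88, SE 0.29, adjusted p = 0.011 in edgeR), a 7.36-fold difference. CEP290, a transition zone protein altered in several ciliopathies, had 51.0 and 82.4 against 14.2 and 6.25 (2.69, SE 0.44, adjusted p = 0.012). Its replicates were the furthest apart of all members, with log2 ratios of 1.81 and 3.62. With the replicate block its adjusted p was 0.034. Its log2 fold change was 3.46 with Input replicate 1 left out and 2.09 with Input replicate 2 left out, still called.

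PCM1, the scaffold of satellites, was enriched at 1.98, and CEP131, another satellite protein, at 1.22. CEP72 passed the adjusted p but had a log2 fold change of 0.89, and CEP126 and CEP78 had 0.64 and -0.07. CEP41, which acts in tubulin glutamylation in cilia, had 15.1 and 12.5 CPM in the IP and 21.6 and 19.4 in the Input (-0.57, SE 0.23, adjusted p = 0.12). CEP20, a small relative of CEP43, was the depleted member, with 20.5 and 13.9 CPM in the IP and 72.3 and 38.7 in the Input (-1.69, SE 0.36, adjusted p = 0.020), 3.23-fold lower. Both IP libraries of CEP20 lay below both Inputs.

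Of the 5 members outside these roles, 1 was enriched (20.0%, against 10.5% of all genes tested). CEP112, a coiled-coil protein of the centrosome, had 36.9 and 39.1 CPM in the IP and 9.91 and 4.62 in the Input (2.37, SE 0.37, adjusted p = 0.012 in edgeR), and its log2 fold change was 3.08 without Input replicate 1. CEP55, which moves to the midbody and directs the last step of cell division, had 306 and 194 against 142 and 54.6 (1.34, SE 0.47, adjusted p = 0.080). As for CEP57, its libraries did not overlap between groups while replicate 2 was lower than replicate 1 in both, and with the replicate block the adjusted p was 2.3e-05. The value of CEP55 rested on the Inputs and on IP replicate 1: it was 2.24 without Input replicate 1 (called), 0.66 without Input replicate 2 (adjusted p = 0.19) and 1.01 without IP replicate 1 (adjusted p = 0.23). CEP85L had 12.6 and 17.4 CPM against 11.7 and 13.01 (0.28, SE 0.26, adjusted p = 0.47). CEP295NL, a short relative of CEP295, had 0.192 and 1.02 against 0.0573 and 1.03 (0.24, SE 1.25, adjusted p = 0.91), too few reads to show a difference of this size. CEP70 had a log2 fold change of 0.86 and was not called, but was at 1.49 and called without Input replicate 1.

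Per kilobase of canonical transcript, Input levels ran from 0.259 CPM for CEP295NL to 37.1 for CEP55, followed by CEP20 at 24.5. The member with the highest fold change, CEP162, was low at 0.807 CPM per kilobase of Input, and the depleted CEP20 was among the highest. PCM1, at 17.7, was both abundant and enriched.

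The members were long. Their median coding length was 2820 bases, against 1431 for all protein-coding genes tested, and that of the 23 enriched members was 5130 bases. Across the 46 members, log2 fold change rose with coding length (Spearman rho = 0.79), with rho = 0.79 for the ratio of replicate 1 and 0.69 for replicate 2. Over the 12542 protein-coding genes rho was 0.59. With the union of all exons in place of the coding sequence the members' rho was 0.41, with the number of exons 0.83, and with the length of the 3′ untranslated region -0.41. These correlations are across genes measured in the same 4 libraries, and are given without a test.

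**Figure D3:**
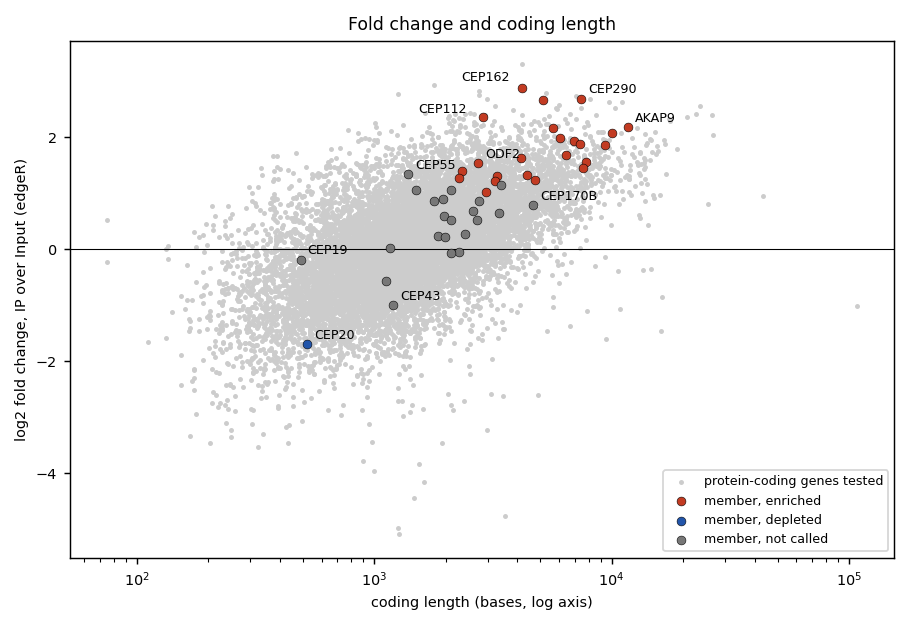
Log2 fold change of IP over Input (edgeR) against coding length (log axis) for protein-coding genes tested (grey) and the 46 members (coloured by call). Members rise from CEP20 at 522 bases and -1.69 to AKAP9 at 11721 bases and 2.18, and most lie in the upper part of the grey cloud at their length.

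Protein-coding genes were divided into deciles of coding length to set members beside genes of like length. In the longest decile, 3615 bases and more, 16 of 17 members were enriched (94.1%), against 568 of the 1236 other genes (46.0%), and the medians were 1.88 and 1.06. CEP170B, at 0.79, was the exception. In the ninth decile 5 of 10 members were enriched against 23.8% of others, and in the eighth 2 of 7 against 14.9%. Of the 12 members in the 7 shorter deciles, none was enriched by edgeR or limma voom, against 4.78% and 4.69% of the 8771 other genes there, shares at which 0 of 12 does not set the members apart. DESeq2 called 1 of the 12 (CEP55, against 5.26%) and the fit with the replicate block 2 (CEP55 and CEP57, against 6.42%). At an unadjusted p below 0.05 edgeR placed 4 of the 12 higher in the IP, against 12.1% of the others. Measured against the median of the own decile, 35 of 46 members were higher, and the median difference over all 46 was 0.57. CEP162, CEP112, CEP290 and CEP152 exceeded their decile median by 1.81, 1.73, 1.62 and 1.60, and CEP20 and CEP43 fell below theirs at -0.89 and -0.80. No test was made over these counts, since the members were proposed with results known. The longest decile was set apart after its values had been seen, and its count of enriched members was 12 of 17 with library size only (15.2% of others) and 15 of 17 without Input replicate 2 (47.8% of others).

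**Figure D4:**
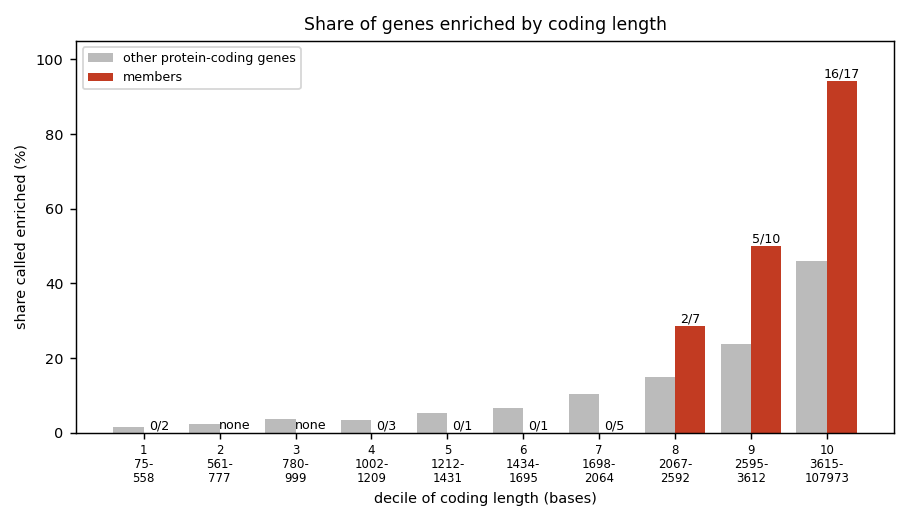
Share called enriched (%) in each decile of coding length for members (red, with enriched over all members above each bar) and for other protein-coding genes (grey). No member falls in deciles 2 and 3. The red bars reach 28.6%, 50.0% and 94.1% in deciles 8, 9 and 10, above the grey bars at 14.9%, 23.8% and 46.0%.

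Coding sequences of the members were rich in glutamate codons. Their median share was 10.5% of codons, against 6.95% over all protein-coding genes tested, 13.1% in the enriched members and 9.19% in the others. Across members the share ranked with log2 fold change at rho = 0.65 (0.35 over all protein-coding genes), and at 0.61 and 0.36 after coding length was partialled out. CEP250 and NIN, with 15.97% and 15.7% glutamate codons, were enriched, but CEP83 had the highest share of all, 16.3%, and was not called. The shares of purines and of glutamate codons are properties of the same sequence and are not separate evidence.

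Runs of GAA were searched in the members because the study examined GAA repeats in ORC1-associated RNAs. The letters GAAGAAGAA, read in the sense of the transcript, occurred in the canonical transcript of 18 members (39.1%), against 14.8% of the protein-coding genes tested, 36.1% of those in the longest decile and 12.8% of all 20046 protein-coding canonical transcripts. The reverse complement TTCTTCTTC occurred in 4 members (8.7%), against 5.02% of the protein-coding genes tested and 11.6% of those in the longest decile. All 26 matches of the members lay in coding sequence, and 20 of them were read as glutamate codons (GAA) and 6 as lysine codons (AAG). Over all protein-coding genes tested, 2309 of 2686 matches were coding, of which 1337 were in the glutamate, 922 in the lysine and 50 in the arginine frame. Of the 18 members with a match 11 were enriched, and of the 28 without one 12 were, with medians of 1.51 and 0.96. Over all protein-coding genes tested, 573 of 1853 with a match and 919 of 10689 without one were enriched. In the longest decile these were 287 of 452 and 297 of 801, so the contrast was not particular to the members. CEP162 and CEP290 had 3 matches each and AKAP9 had 4, while CEP152, with nearly the same fold change as CEP290, had none.

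The windows printed here show the match (capitals) with up to 30 bases on each side within its exon, 5′ to 3′ in the transcript, for strongly enriched members in the glutamate frame, an enriched member in the lysine frame and a member that was not enriched. Coordinates and exons are those of GENCODE v44 on GRCh38, which is not the build of the counts (hg19), and all are in coding exons of the canonical transcript. CEP162 is on chr6:84185386-84185448 (minus strand, exon 13 of 27), CEP290 on chr12:88087780-88087836 (minus, exon 32 of 54), AKAP9 on chr7:92000905-92000973 (plus, exon 8 of 50) and PCNT on chr21:46399656-46399724 (plus, exon 25 of 47). CEP164 is on chr11:117351895-117351963 (plus, exon 5 of 33) and CEP19 on chr3:196707621-196707689 (minus, exon 3 of 3).
CEP162: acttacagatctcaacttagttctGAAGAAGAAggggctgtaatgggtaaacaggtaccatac
CEP290: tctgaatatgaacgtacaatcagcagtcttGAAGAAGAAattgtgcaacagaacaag
AKAP9: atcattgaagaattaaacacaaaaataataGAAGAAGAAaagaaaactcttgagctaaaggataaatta
PCNT: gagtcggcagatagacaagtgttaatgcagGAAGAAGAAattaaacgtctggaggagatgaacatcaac
CEP164: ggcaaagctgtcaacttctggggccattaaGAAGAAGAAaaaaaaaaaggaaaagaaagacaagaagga
CEP19: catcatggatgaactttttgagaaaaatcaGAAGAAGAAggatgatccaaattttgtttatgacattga

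The capitals of CEP162, CEP290, AKAP9 and PCNT are read as glutamate codons, and those of CEP164 and CEP19 are shifted and read through lysine codons. CEP164 was enriched at 1.33 and CEP19 stood at -0.18 (SE 0.44). Their coding sequences also differ in length, at 4380 and 489 bases, and CEP19 was measured with few reads. The pair is shown only for the reading frame, and a part of the letters in the fold change was not tested. A match of these letters is a description of the transcript and does not mark a site of binding.

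Related members were set side by side, since their protein sequences share 28.5% to 40.7% of aligned residues while their transcripts differ. CEP170 and CEP170B share 40.7% of aligned residues, and their log2 ratios in replicates 1 and 2 were 0.93 and 1.57, and 0.81 and 0.76, with GC contents of 40.7% and 66.3%. CEP85 and CEP85L share 38.9%, and had ratios of 1.41 and 1.11, and 0.10 and 0.40. CEP85 was thus higher in both replicates, by 1.31 and 0.71. NIN and NINL share 33.7% and both were enriched, with ratios of 1.501 and 1.94, and 1.57 and 1.60. PCNT and AKAP9 share 28.5% and were also both enriched, at 2.07 and 2.18. CEP295 and CEP295NL share 36.1%, and had ratios of 1.32 and 1.79, and 0.31 and -0.0028, but CEP295NL had few reads. Whether reads of these partners can be told apart was not tested. CEP170 has a pseudogene, CEP170P1, with 11 to 34 counts per library.

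The other centrosomal genes, 55 with no CEP symbol apart from CEP57L1, gave 14 enriched (25.5%) and 2 depleted (3.64%). Of all genes tested, 10.5% and 8.3% were so called. The median log2 fold change of the 55 was 0.64. PIBF1, a satellite protein, was highest at 2.35 (SE 0.41, adjusted p = 0.014 in edgeR), followed by CENPJ, the centriole elongation factor, at 2.19 and CKAP5, a microtubule polymerase, at 1.91. MZT1, the smallest subunit of the γ-tubulin ring complex, was depleted at -2.40 (SE 0.46, adjusted p = 0.017), as was HAUS2, a subunit of augmin, at -1.12. POC1B, a centriole protein, had -0.92. The median coding length of these genes was 2010 bases, shorter than that of the members, and MZT1 and HAUS2, like CEP20, are short at 246 and 705 bases. CEP95, the CEP gene that the rule leaves out, was enriched at 2.08 (SE 0.24, adjusted p = 0.011).

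Replicates ordered the members alike, at Spearman rho = 0.86 between the log2 ratios of replicates 1 and 2, which share no library. The ratio was higher in replicate 2 for 33 of 46 members. The median difference, replicate 2 less replicate 1, was 0.33 over all 46 members and -0.06 over all genes tested. The ratio differed by more than 1 for CEP290, SASS6, CEP63, CEP135, CEP112 and CEP83, each higher in replicate 2. The difference ranked with the share of GAA codons at rho = 0.82 over the 46 members (0.13 over all protein-coding genes). Of its components, the log2 change between the Input libraries ranked with GAA codons at -0.76, and that between the IP libraries at 0.04. Over all protein-coding genes these were -0.29 and -0.22, and in the longest decile -0.40 and -0.25. The fall of GAA-rich mRNAs in Input replicate 2 was therefore seen beyond the members, but there the IP libraries also ranked with GAA codons. Members rich in GAA codons were thus lower in Input replicate 2 than in Input replicate 1. This Input change also ranked with GC content at 0.62, with lysine codons at -0.69 and with all glutamate codons at -0.32 over the members. Over all protein-coding genes these were 0.30, -0.31 and -0.17, so the trend was not particular to GAA codons. Whether base composition had a part in this was not tested.

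**Figure D5:**
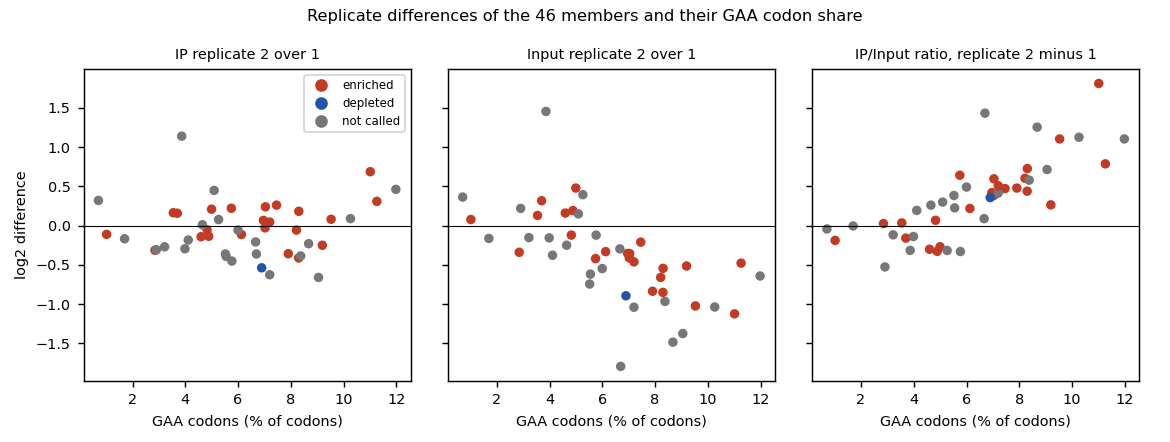
Log2 difference of replicate 2 from replicate 1 against the share of GAA codons (% of codons) for the 46 members: IP levels (left), Input levels (middle) and the IP to Input ratio (right), coloured by edgeR call. Points of the middle panel fall with the GAA share (rho = -0.76), those of the left panel show no order (0.04), and those of the right panel rise (0.82).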

How the data were processed

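RNA of 2 ORC1-FLAG IP and 2 Input libraries was measured by RIP-seq (ribosomal RNA depleted, stranded kit). The deposited values are raw read counts per gene, which the authors made with Trimmomatic, STAR and featureCounts on hg19 with an Ensembl annotation, with reads on GL contigs taken out. The strand setting, the annotation release and the handling of multiply aligned reads are not given in the sources used here. Totals were 27483148 and 20280445 counts (IP 1 and 2) and 14677002 and 9213877 (Input 1 and 2). Intervals of counting error are not printed, and reads carry no molecular identifiers.

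Genes kept by filterByExpr entered a quasi-likelihood test in edgeR 4.0.16 under R 4.3.3, with robust dispersions, TMM scaling and only the group as a term, and p-values were adjusted by Benjamini-Hochberg over 14645 genes. The SE was derived from the log2 fold change and F. The script was tested on simulated data. Replicate ratios used CPM with a pseudocount of 0.5. Nothing in the labels says that the replicates were separate cultures, and p-values measure only the spread between these libraries. The paper describes the anti-FLAG sequencing as duplicate experiments and reports that its experiments were repeated independently. The labels tie each IP to the Input of its replicate, and same-numbered libraries deviated together (Pearson r = 0.65), so a replicate block was an alternative. Others were DESeq2 1.42.0 (the tool of the study), limma voom (3.58.1), RLE, library-size and upper-quartile scaling, 2 filters, no fold minimum and each library left out. The setting of deciles beside members was chosen after seeing the data.

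Coding lengths, codons and sequences were those of GENCODE v44 canonical transcripts on GRCh38, joined by gene identifier, and 380 genes tested had no such identifier. Proteins translated from them were aligned with BLOSUM62 (Biopython 1.88). Members, role lists and tests were chosen with earlier results of these data known. Values in every library are given for the 2 highest and 2 lowest members of each of 7 role lists, for all members in lists of up to 4, for depleted members, and for CEP152 and CEP290, which the study assayed. A gene of the member list and a marker gene are counted but not reported here by name. Of the other centrosomal genes the 3 highest and 3 lowest are named.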

Additional observations from a re-analysis of the deposited data

How the results depend on the processing

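Of the 23 enriched members, 13 were called in all 12 alternative fits and 20 whichever library was left out. Library size only had the greatest effect, since it moved the median gene. It left 13 members enriched and 3 depleted, a median log2 fold change of 0.59, and 3 enriched and 7 depleted of the other centrosomal genes. In the main fit 46.0% of other genes in the longest coding decile were enriched, and with library size only 15.2%. Under it CNTROB (-0.089), CEP83 (-0.056), CEP85L (-0.31), CEP295NL (-0.34), CEP76 (-0.39) and CEP44 (-0.57) turned negative, and CEP295, ODF2, CEP192, CEP89, CEP164, CEP128, CEP85, CEP170, CEP131 and CEP120 were no longer called. Depleted members numbered 2 with RLE, upper-quartile scaling, the filter of 1 CPM or no fold minimum, CEP43 being the addition, and with no fold minimum 4 other centrosomal genes were depleted. CEP44 was at -0.0017 with RLE, -0.0028 with the 1 CPM filter and -0.14 with upper-quartile scaling. Enriched members numbered 25 under DESeq2 (CEP55 and CEP135 added), 24 under voom (CEP135 added) and 27 with the replicate block. Of other genes in the longest decile these fits called 50.0%, 46.1% and 53.7% enriched. The direction of the result held, and the replicate block changed no call among members other than those of CEP55, CEP135, CEP63 and CEP57.

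With each library left out in turn, enriched members numbered 20 to 32 and depleted members 1 to 2, the median ran from 0.87 (without Input replicate 2) to 1.502 (without Input replicate 1), and the other centrosomal genes gave 12 to 24 enriched (24 without Input replicate 1) and 1 to 4 depleted (1 without Input replicate 1 or IP replicate 2, 4 without Input replicate 2). CEP43 was the added depleted member without Input replicate 1. Without Input replicate 2, CEP128 (0.99), CEP170 (0.90) and CEP120 (0.66) lost their calls, and CEP120 lost its call also with RLE, upper-quartile scaling, the 1 CPM filter, no filter and without IP replicate 1. Signs changed within these ranges for SASS6 (-0.19 to 1.84), CEP295NL (-1.34 to 3.11), CEP44 (-0.27 to 0.24), CEP68 (-0.16 to 0.16), CEP78 (-0.40 to 0.17) and CEP19 (-0.69 to 0.36). With a lone library in a group its spread is assumed to be that of the other group. The causes were not tested. The share of all genes called is not given for the fits with a library left out. A change in the members' calls is thus not set apart from one in all genes. The median log2 fold change of all genes was -0.05 without Input replicate 1 and -0.04 without Input replicate 2. With 2 libraries a group and shallow Inputs, no difference was detected for CEP295NL, CEP126 and CEP19, whose SEs were 1.25, 0.38 and 0.44. CEP162 was called with Inputs of 4.98 and 3.34 CPM, so a low level did not by itself prevent a call. CEP295NL was near or under 1 CPM, and CEP126 and CEP19 were under 5 CPM, in every library.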
